A study of Mus musculus with 721 samples.

Results

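The 8 genes described here encode apolipoproteins, the protein shells of lipid-carrying particles, together with the protein that loads lipid onto one of them: Apoa1, Apoa2, Apoa4, Apob, Apoc2, Apoe, Apom and Mttp. They were chosen by name, as 8 of the 24483 gene rows of the deposited count table, and all 8 had a row and passed the filter on low counts. The members were followed from the inner cell mass through primitive endoderm (PrE) to visceral endoderm (VE), and into E6.5 epiblast cells, where low counts could be carried over from endoderm.

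The series holds 721 wells of manually picked cells from wild type C57Bl/6Babr mouse embryos, sequenced by single-cell RNA-seq at E3.5 (99 wells, 10 embryos), E4.5 (105 wells, 5 embryos), E5.5 (267 wells, 9 embryos) and E6.5 (250 wells, 13 embryos, 82 of the wells titled E6.75). No group was treated or carried a mutation. Stage, embryo and cell class are the main contrasts, and plate, handling and the share of cell pairs also differed between stages. The outer trophectoderm of E3.5 and E4.5 embryos was lysed with antiserum, the E5.5 epiblast was drawn out of its visceral endoderm with a pipette before both were dissociated, and E6.5 embryos had extra-embryonic tissue taken off before what remained was dissociated as a piece. Of the wells, 128 held a cell pair, and total counts ran from 66896 to 3792936 per well (median 692863).

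Because only 5 wells carried a lineage in their titles (VE, at E5.5), cells were clustered on genes other than the members and the 5 gene lists described below. The clusters used at E4.5 and E5.5 came from a single clustering of the cells of all stages. Those used at E6.5 came from E6.5 cells alone. Within a stage, each cluster was named from fixed markers. This gave 82 PrE-like and 23 epiblast-like cells at E4.5, 8 endoderm-like and 259 epiblast-like cells at E5.5, and 39 endoderm-like, 186 epiblast-like and 25 primitive streak-like cells at E6.5. All 5 cells titled VE fell among the 8 endoderm-like cells. Within an embryo, the raw counts of all cells sharing a class were added up where there were at least 3, so that the embryo is the replicate, and levels are given as CPM, the counts scaled to 1e+06 of each sum's scaled library size.

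Marker levels by class are a description only, because the endoderm and epiblast markers themselves named the clusters. The 16 endoderm markers (Gata4, Gata6, Sox17, Pdgfra, Dab2, laminins and others) summed to between 9715 and 13851 CPM in the 5 PrE-like sums and between 346 and 707 CPM in the 5 E4.5 epiblast-like sums, with Pdgfra, Krt8 and Krt19 at 0 in the latter. At E6.5 they summed to between 3496 and 5243 CPM in the 7 endoderm-like sums and between 246 and 1251 CPM in the 13 epiblast-like sums. The 15 epiblast markers with a row were not absent from E6.5 endoderm-like sums (742 to 2268 CPM, against 3359 to 6803 CPM in epiblast-like sums), and Pou5f1 had a count in 71.8% of the 39 endoderm-like cells. Conversely, 14 epiblast-like cells from 8 embryos had a mean endoderm marker level at or above the lowest endoderm-like cell. At E4.5, PrE-like cells with mean endoderm marker levels of 0.398, 1.47 and 1.57 (log2 scale) lay within the epiblast-like range (highest 3.38). A loosely joined cluster of 32 E6.5 cells, 29 of them from plate-named embryos, had a median of 5009.5 detected genes against 6960 in the other epiblast-like cells and was counted as epiblast-like. Because the classes were built from the same cells, tests between classes of a stage carry no error for the assignment itself.

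Apolipoproteins solubilize lipid and direct particles to enzymes and receptors. APOB is the non-exchangeable scaffold of very-low-density lipoproteins and chylomicrons, and the microsomal triglyceride transfer protein, whose large subunit is encoded by Mttp, lipidates it as it enters the endoplasmic reticulum. The visceral endoderm surrounds the epiblast before a placenta or liver exists, takes up maternal nutrients and secretes lipoproteins and other plasma proteins toward the epiblast, as hepatocytes and enterocytes do later.

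The members lie at 6 places in the mouse genome (GRCm38, GENCODE vM21). Apoa1 (chr9:46228580-46230466, plus strand, 1236 exonic bases) and Apoa4 (chr9:46240696-46243459, plus strand, 1815 exonic bases) are neighbours on chromosome 9, and Apoc2 (chr7:19671579-19677941, minus strand) and Apoe (chr7:19696109-19699188, minus strand) are neighbours on chromosome 7. Apoa2 is at chr1:171225054-171226379 (plus), Apob at chr12:7977648-8016835 (plus, 13934 exonic bases), Mttp at chr3:138089854-138144968 (minus) and Apom at chr17:35128997-35132050 (minus). Reads could be shared with other annotated genes at 3 members. Of the exonic bases of Apoa4, 1266 overlap the antisense genes Gm10680 and Gm47528, 646 of the 813 exonic bases of Apoc2 overlap Gm44805 on the same strand, and 589 of the 6206 of Mttp overlap Gm43691 and Trmt10a on the other strand. Reads from such partners cannot be told apart in these counts.

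The promoter windows of Apoa1, Apoa4, Apob, Apoc2 and Apom are shown because these 5 genes were called higher both between the PrE-like and E6.5 endoderm-like sums and between E5.5 and E6.5 epiblast-like sums. Each is the RefSeq window (GRCm38.p6) from 250 bases before to 50 after the start of transcription, 5′ to 3′ on the gene's own strand: Apoa1 at chr9:46228380-46228679 (plus), Apoa4 at chr9:46240594-46240893 (plus), Apob at chr12:7977427-7977726 (plus), Apoc2 at chr7:19677892-19678191 (minus) and Apom at chr17:35131752-35132051 (minus). Capitals mark matches on either strand to AGGTCA (part of a nuclear receptor element), AAAGTCC (part of an HNF4 element), GTTAAT (part of a homeodomain factor element), TGTTTAC (a forkhead element) or AGATAA (an element of zinc finger factors of endoderm and blood), and no match overlapped another.
Apoa1: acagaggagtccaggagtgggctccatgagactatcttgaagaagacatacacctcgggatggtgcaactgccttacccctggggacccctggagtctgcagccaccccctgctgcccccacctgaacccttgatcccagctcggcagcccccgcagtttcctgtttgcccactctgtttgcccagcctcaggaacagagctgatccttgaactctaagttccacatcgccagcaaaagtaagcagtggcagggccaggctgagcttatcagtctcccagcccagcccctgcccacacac
Apoa4: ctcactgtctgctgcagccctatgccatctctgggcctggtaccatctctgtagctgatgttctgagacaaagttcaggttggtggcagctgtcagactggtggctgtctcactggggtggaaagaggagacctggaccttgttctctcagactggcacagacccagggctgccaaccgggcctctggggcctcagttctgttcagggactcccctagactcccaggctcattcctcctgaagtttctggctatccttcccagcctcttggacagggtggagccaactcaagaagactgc
Apob: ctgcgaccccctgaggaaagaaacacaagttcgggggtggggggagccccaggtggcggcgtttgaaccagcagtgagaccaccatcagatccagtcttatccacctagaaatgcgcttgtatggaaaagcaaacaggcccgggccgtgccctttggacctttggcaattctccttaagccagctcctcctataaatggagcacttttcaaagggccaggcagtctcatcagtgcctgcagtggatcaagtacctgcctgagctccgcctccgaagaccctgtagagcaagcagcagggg
Apoc2: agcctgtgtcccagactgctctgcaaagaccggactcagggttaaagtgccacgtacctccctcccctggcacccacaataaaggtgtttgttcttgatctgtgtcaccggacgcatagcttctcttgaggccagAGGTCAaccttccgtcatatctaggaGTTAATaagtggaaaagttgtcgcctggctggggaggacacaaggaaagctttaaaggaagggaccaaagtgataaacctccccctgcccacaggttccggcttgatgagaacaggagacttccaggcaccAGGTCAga
Apom: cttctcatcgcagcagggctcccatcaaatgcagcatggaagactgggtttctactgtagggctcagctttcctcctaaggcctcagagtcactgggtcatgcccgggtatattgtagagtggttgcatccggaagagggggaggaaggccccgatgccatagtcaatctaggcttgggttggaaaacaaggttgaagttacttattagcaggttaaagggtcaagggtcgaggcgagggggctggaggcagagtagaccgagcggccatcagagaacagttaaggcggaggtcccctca
Of the 5 windows shown, the Apoc2 window held 3 matches, AGGTCA at −115 and +43 and GTTAAT at −89 from the start, and the other windows held none. Over all 11 windows of the 8 members, matches were also found in windows of Apoa2 and Apoe, and none in that of Mttp. Among 32851 RefSeq windows of this length, 16.3% held AGGTCA, 7.10% GTTAAT, 4.21% AAAGTCC, 3.65% TGTTTAC and 11.2% AGATAA, and 35.2% held at least 1 of the 5. Absence of these letters says nothing about which factors bind there.

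Across the classes, all 8 members had their highest mean level in E5.5 or E6.5 endoderm-like sums, although for Apoa2 this was the single E5.5 sum (102 CPM). Apoa2 ran from 0 to 82.6 CPM in E6.5 endoderm-like sums and from 19.2 to 38.4 CPM in E4.5 epiblast-like sums. Its mean was lower in the former. Apoe, the ligand of several lipoprotein receptors, was abundant in every class. Together the 8 genes took 0.115 to 0.367% of the counts of a PrE-like sum and 0.837 to 2.73% of those of an E6.5 endoderm-like sum. Their make-up differed as well, since Apoe alone was 87.9 to 95.2% of the members' CPM in PrE-like sums and 23.4 to 47.7% in E6.5 endoderm-like sums. Per kilobase of exon, the order of mean levels in PrE-like sums was Apoe (1039 CPM per kb), Apom (152.5), Apoc2 (7.31), Apoa2 (7.25), Mttp (3.54), Apoa4 (1.81), Apoa1 (1.07) and Apob (0.469). In E6.5 endoderm-like sums it was Apoa1 (3345 CPM per kb), Apoe (2592), Apoc2 (2246), Apom (1492), Apob (271), Apoa4 (235), Apoa2 (48.4) and Mttp (26.1), and neighbours in this second order overlapped between embryos except Apom and Apob. In bulk sums of this kind fewer expressing cells and less RNA per cell cannot be told apart, and the shares of cells with a count are therefore given further on.

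**Figure D1:**
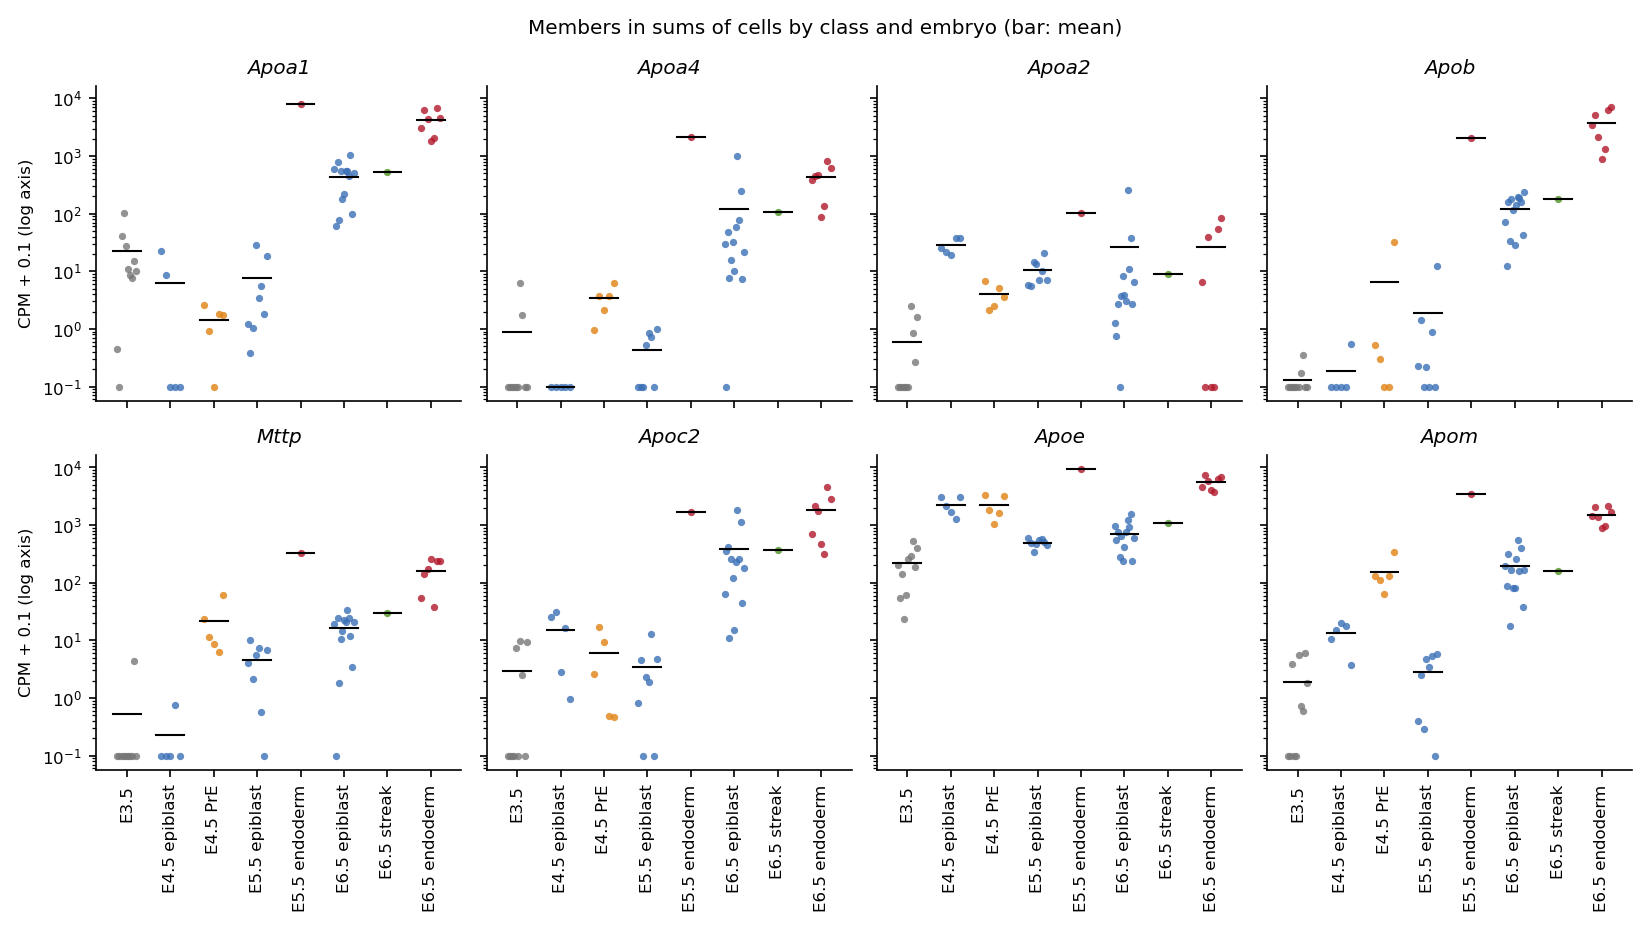
Level of each member (CPM + 0.1, log axis) in the sums of each class, 1 point per embryo, with the class mean as a bar. Apoe was high in both E4.5 classes, Mttp and Apom were higher in PrE-like than in E4.5 epiblast-like sums, and Apoa1, Apob and Apoc2 were above 300 CPM in every E6.5 endoderm-like sum.

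The first comparison asked which members already separated the lineages at E4.5. Of the 8 members, 2 were called higher in PrE-like than in epiblast-like sums and none lower (edgeR quasi-likelihood test, adjusted p at most 0.05 and a log2 difference over 2), where 3.47% of the 17020 genes tested were called in either direction, 2.33% higher and 1.14% lower. Both the lipid transfer subunit Mttp and Apom, the carrier of sphingosine-1-phosphate on lipoproteins, were higher in all 5 embryos. The median log2 difference was 1.76 over the members and 0.05 over all genes tested.

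Mttp stood at 23.3 and 11.5 CPM in the PrE-like cells of the embryos of plate P1 and at 8.54, 6.10 and 60.4 CPM in those of plate P2. The epiblast-like sums of the same embryos were at 0 except 1 at 0.648 CPM, so the groups did not overlap. Pooled over embryos, 1612 counts against 3 gave a ratio of 126 (95% counting interval 43.0 to 611), with an adjusted p of 0.0033. Within plate P1 (2 embryos) the adjusted p was 0.154 and within plate P2 (3 embryos) 0.045. The call also depended on how cells were clustered. Ward clustering moved 6 PrE-like cells to the epiblast-like class and clustering without the members' chromosomes moved 4, and with these classes the adjusted p was 0.495 and 0.564. Both sets included 1 cell of embryo 5 that held 212 of the 224 Mttp counts moved by the first and all of those moved by the second, beside Gata6 (87 counts), Sox17 (115) and Nanog (746) and had a mean endoderm marker level of 5.30, above the highest epiblast-like cell (3.38).

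Apom was at 130, 110, 62.5, 130 and 340 CPM in PrE-like sums and at 10.5, 15.0, 20.2, 17.9 and 3.71 CPM in the epiblast-like sums of the same embryos, again without overlap. The log2 difference was 3.53 ± 0.87 (SE; adjusted p = 0.0089), 3.28 within plate P1 (adjusted p = 0.071) and 3.66 within plate P2 (adjusted p = 0.029). Embryo 5 of plate P2 had both the highest PrE-like and the lowest epiblast-like level, and without it the log2 difference was 2.76 (adjusted p = 0.101). The call was lost as well with clusters that left out the members' chromosomes (3.24, adjusted p = 0.089).

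Apob, the substrate of that transfer protein, was close to absent from most PrE-like cells. It was at 0.435, 0.201, 0, 0 and 32.0 CPM in PrE-like sums, and in epiblast-like sums at 0 except 0.436 CPM in embryo 5. All 614 counts behind the value of 32.0 CPM came from 1 of 19 cells, and 4 of the 82 PrE-like cells had any Apob count. The pooled ratio was 72.4 (618 counts against 2, 95% counting interval 20.0 to 599), and the difference did not pass the test (adjusted p = 0.055).

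Apoe did not separate the lineages. PrE-like sums held 3332, 1850, 1061, 1633 and 3226 CPM and the epiblast-like sums of the same embryos 3107, 2136, 1681, 1263 and 3034 CPM, in the same order of embryos. The log2 difference was −0.02 ± 0.46 (adjusted p = 1), and levels differed more between embryos than between the classes of an embryo.

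None of the A-type genes passed the test in the fit over all classes. Apoa4, a chylomicron and high-density lipoprotein component, was at 0.87 to 6.26 CPM in PrE-like sums and at 0 counts in all 5 epiblast-like sums, at least 20.8-fold higher when 3 counts over the epiblast-like group are taken as the limit (adjusted p = 0.093). Apoa2, a high-density lipoprotein protein, was lower in PrE-like cells of every embryo, at 6.67, 2.01, 2.39, 4.96 and 3.44 CPM against 25.3, 21.3, 19.2, 37.4 and 38.4 CPM. Its log2 difference of −2.86 ± 1.49 did not pass in the fit over all classes (adjusted p = 0.267), and passed when the embryo was a block (−2.92, adjusted p = 0.024). Apoa1, the main protein of high-density lipoproteins, was at 0 to 2.46 CPM in PrE-like sums, with epiblast-like sums at 22.4 and 8.67 CPM in plate P1 and at 0 in plate P2 (−2.03, adjusted p = 0.302, and 0.39 with the embryo as a block, adjusted p = 0.95). Apoc2, the cofactor of lipoprotein lipase, overlapped between the classes (0.365 to 17.1 CPM against 0.873 to 30.7 CPM, adjusted p = 0.594).

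**Figure D2:**
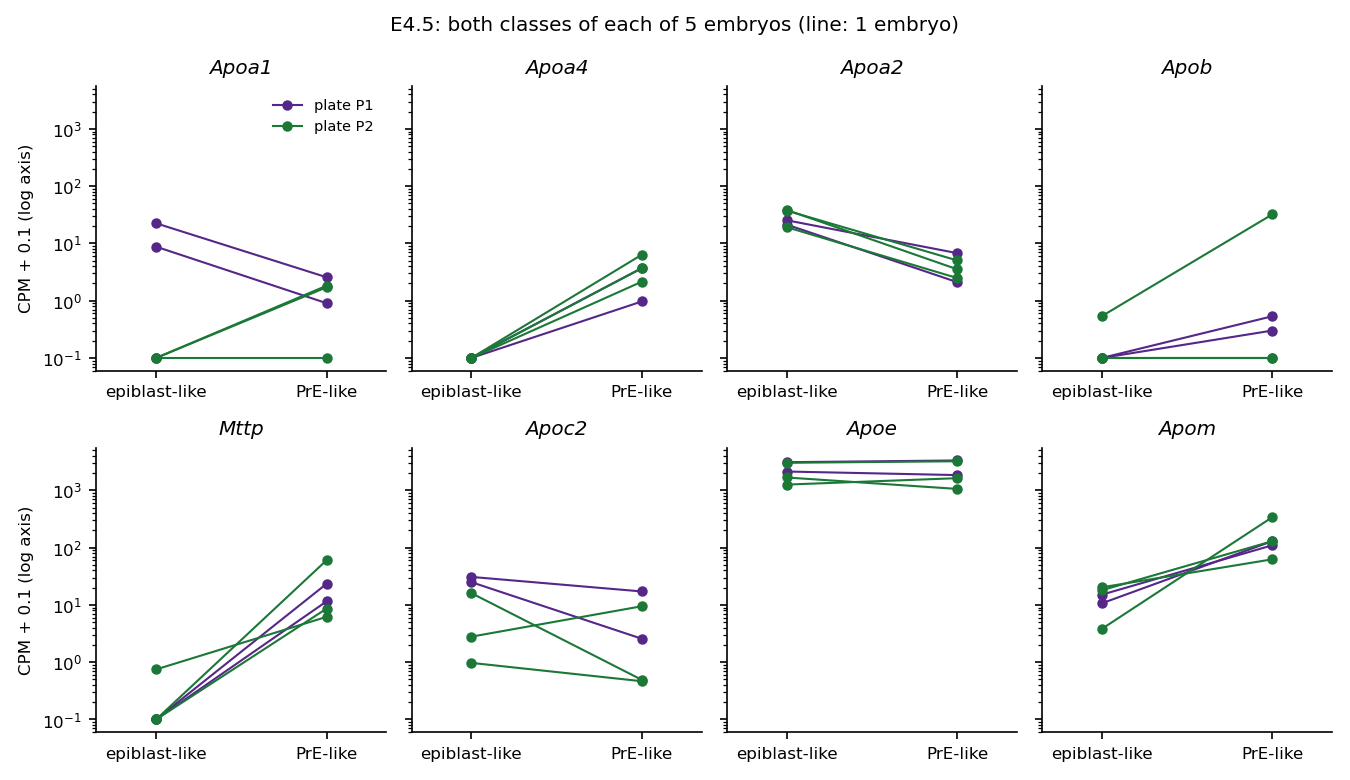
Level of each member (CPM + 0.1, log axis) in epiblast-like and PrE-like cells of the 5 E4.5 embryos, 1 line per embryo, coloured by plate. Lines for Mttp and Apom rise and lines for Apoa2 fall in all 5 embryos, while those for Apoe stay nearly level.

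Genes acting with the members were read from 5 lists. Of 32 tested genes of lipoprotein assembly and secretion, 9 rose in PrE-like against epiblast-like sums and none fell (list median 1.68, all genes 0.05). Among them Pla2g12b, a catalytically inactive phospholipase family protein needed for lipoprotein secretion, averaged 76.6 CPM in PrE-like sums and 0 in epiblast-like sums (adjusted p = 1.5e-05), and Soat2, a cholesterol esterifying enzyme, 77.5 against 0.775 CPM (adjusted p = 0.012, and 0.077 without embryo 5 of plate P2). Of 20 receptors and cholesterol transporters, 5 rose and none fell (list median 0.66). Cubn, an endocytic receptor for high-density lipoproteins, averaged 2802 against 6.07 CPM (adjusted p = 2.1e-05), and the lysosomal lipase gene Lipa 3.27 against 0 CPM (adjusted p = 0.020, lost when any 1 of 3 embryos was left out, highest 0.103). Of 31 hepatic and endodermal regulators, 3 rose and none fell (list median 0), including Foxa3, at 8.02 against 0 CPM (adjusted p = 0.0025). Of 24 other apolipoprotein and lipoprotein lipid genes, 1 rose and 1 fell, the endothelial lipase gene Lipg (15.1 against 0 CPM, adjusted p = 0.045) and the clusterin gene Clu (0.0417 against 11 CPM, adjusted p = 0.050), both lost when any 1 of the 5 embryos was left out (0.055 to 0.200), and of 25 other visceral endoderm genes 9 rose and none fell (list median 4.07).

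Against the 10 E3.5 sums, which hold inner cell mass cells before the lineages part, 4 members rose in PrE-like sums and 1 fell, where 17.8% of genes tested were called, 13.3% higher and 4.58% lower. Apom rose by 6.49 ± 0.75 on the log2 scale (adjusted p = 2.8e-09), from a median of 0.559 CPM over E3.5 sums (0 to 5.82 CPM), and Apoe by 3.36 ± 0.39 (adjusted p = 3.0e-09), from 195 CPM (23.4 to 534 CPM). Neither gene's E3.5 range met its PrE-like range. Mttp rose by 5.56 ± 1.0 (adjusted p = 4.5e-05) and had counts in 1 of 10 E3.5 sums, at 4.28 CPM. The call on Apob (ratio 182, 95% counting interval 61.9 to 883, adjusted p = 0.00022) rested on the single cell of embryo 5, without whose embryo the adjusted p was 0.901.

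Apoa1 fell by 3.98 ± 1.07 (adjusted p = 0.0063) between these stages. Its E3.5 sums ran from 0 to 103 CPM (median 10.4 CPM), above the highest PrE-like sum of 2.46 CPM in most embryos. With only these 2 classes in the fit the adjusted p was 0.050. Trophoblast markers moved with this difference, summing to 269 to 1059 CPM over E3.5 sums with 8 of 8 detected, and to 63.6 to 152 CPM over PrE-like sums with Cdx2, Hand1, Krt7 and Tfap2c at 0, and their part in it was not tested. Apoa2, Apoa4 and Apoc2 did not pass (adjusted p = 0.092, 0.280 and 0.653), although Apoa2 and Apoa4 did without 1 E3.5 embryo (adjusted p = 0.041 and 0.026). E3.5 and E4.5 cells came from different plates, so stage and plate cannot be told apart.

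In the same comparison, 12 of 32 assembly genes rose and 3 fell (list median 1.11, all genes 0.13), and 14 of 25 other visceral endoderm genes rose (list median 4.62). Of 31 regulators 7 rose and 3 fell (list median −0.38). The forkhead genes Foxa2 and Foxa3, which open chromatin at endodermal and hepatic genes, were at 0 in all 10 E3.5 sums and averaged 35.0 and 8.02 CPM in PrE-like sums (adjusted p = 4.1e-08 and 1.4e-06). Of 20 receptors 5 rose and 1 fell. Lrp2, which encodes the endocytic receptor megalin, rose from a mean of 6.69 to 2285 CPM (adjusted p = 2.6e-11), and Amn, whose product carries cubilin to the cell surface, from 0.686 to 1456 CPM (adjusted p = 2.7e-14). Plin2, a lipid droplet coat gene of the assembly list, fell from 469 to 20.3 CPM (adjusted p = 9.3e-05). Of 24 other apolipoprotein and lipoprotein lipid genes 3 rose and 2 fell.

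The next comparison took PrE at E4.5 to endoderm at E6.5. Of the 8 members, 6 were called higher in E6.5 endoderm-like than in PrE-like sums and none lower, where 11.1% of genes were called, 3.73% higher and 7.36% lower, and the members' median was 5.14 against −0.12 for all genes. Apoa1 went from at most 2.46 CPM to between 1822 and 6730 CPM (median 4468 CPM), a log2 difference of 11.53 ± 1.48 (adjusted p = 2.2e-07). Apob went from between 0 and 32.0 CPM to between 877 and 7095 CPM (median 3443 CPM), by 9.11 ± 1.40 (adjusted p = 7.2e-06). The embryos did not overlap for either gene, and the 5 plate-named E6.5 embryos (11.37 and 8.65) and the 2 without a plate name (11.97 and 9.93) passed separately. E4.5 and E6.5 embryos were dissected differently, so stage and handling cannot be told apart in this comparison.

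Apoc2 rose to between 321 and 4526 CPM (8.32 ± 1.53, adjusted p = 0.00019) and Apoa4 to between 88.3 and 832 CPM (7.0 ± 1.52, adjusted p = 0.0018). The 2 genes already high in PrE rose less. Apom reached 876 to 2189 CPM (3.29 ± 0.82, adjusted p = 0.0059) and Apoe 3736 to 7477 CPM (1.32 ± 0.44, adjusted p = 0.043), each without overlap between embryos. The call on Apoe was lost when any 1 of 6 embryos was left out (adjusted p between 0.051 and 0.119) and in either plate subset (0.060 and 0.174). Mttp was at 37.6 to 253 CPM (median 172 CPM), overlapping the PrE-like embryo at 60.4 CPM, and did not pass (2.88 ± 1.11, adjusted p = 0.075), although it did with only this pair of classes in the fit (adjusted p = 0.0098) and with DESeq2 (0.030). Apoa2 had counts in 4 of 7 embryos, up to 82.6 CPM (adjusted p = 0.205), and passed with only the embryos without a plate name (adjusted p = 0.038).

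The single E5.5 endoderm-like sum, 5 cells titled VE from embryo 7, was already at this level. It held 8095 CPM of Apoa1, 2086 of Apob, 1723 of Apoc2, 2174 of Apoa4, 3404 of Apom, 9260 of Apoe, 330 of Mttp and 102 of Apoa2. Of these, Apob, Apoc2 and no other gene lay within the E6.5 range, and the other 6 lay above it. With 1 sum there is no replicate and no test, but all 8 endoderm-like cells, from 4 embryos, had counts of Apoa1, Apoa4, Apob, Mttp, Apoe and Apom after thinning to 100000 counts.

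Assembly genes did not rise with the members. Of 32 tested, none rose and 6 fell between PrE-like and E6.5 endoderm-like sums (list median −0.19, all genes −0.12). P4hb, the small subunit of the transfer protein and a disulfide isomerase, went from a mean of 2221 to 412 CPM (−2.43 ± 0.29, adjusted p = 4.5e-08) and Syvn1, a ubiquitin ligase of the endoplasmic reticulum, from 250 to 17.8 CPM (adjusted p = 0.0019). Other visceral endoderm genes rose in 9 of 25 cases (list median 2.61), among them Rbp4, the retinol carrier, from 0 in all 5 PrE-like sums to a mean of 329 CPM (adjusted p = 1.1e-06), and Afp, alpha-fetoprotein, from 0.223 to 1692 CPM (adjusted p = 2.2e-07). Of 31 regulators 3 rose, including Foxa1, from 0 to 15.9 CPM (adjusted p = 0.0022), and the nuclear receptor gene Nr2f2, from 0.0130 to 15.9 CPM (adjusted p = 0.019). Receptors rose in 2 and fell in 3 of 20 cases, the falls including Lrp2, from 2285 to 198 CPM (adjusted p = 0.0022), which did not pass with only embryos without a plate name (0.273), and other apolipoprotein and lipoprotein lipid genes rose in 2 and fell in 2 of 24. One E6.5 endoderm-like sum held 815 CPM of blood markers (median over the 7 sums 0), and its part in these levels was not tested. Of 8 trophoblast markers 4 were called higher in E6.5 endoderm-like sums and none lower (summed 8.83 to 215 CPM, against 63.6 to 152 CPM in PrE-like sums), of 16 primitive streak markers 5 were higher and 2 lower, and of the 16 endoderm markers 2 were higher and 5 lower (list median −2.34). Their part was not tested either.

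At E6.5, 6 of 8 members were higher in endoderm-like than in epiblast-like sums and none lower, where 16% of genes were called, 6.36% higher and 9.62% lower. The largest differences were those of Apob (4.97 ± 0.76, adjusted p = 8.9e-06) and Mttp (3.34 ± 0.78, adjusted p = 0.0029). Apoa1 differed by 3.24 ± 0.70 (adjusted p = 0.0012), Apoe by 2.98 ± 0.34 (adjusted p = 1.3e-08) and Apom by 2.97 ± 0.56 (adjusted p = 0.00027). The ranges of these 5 genes did not overlap between classes, and the share of all genes without overlap is not given here. Within the plate-named embryos all 5 passed (adjusted p between 2.5e-06 and 0.043), and in the 2 endoderm-like and 4 epiblast-like sums without a plate name Apob and Apoe passed (adjusted p = 0.047 and 0.0078). With clusters that left out the members' chromosomes only these 2 members passed, and Apoa1, Apom and Mttp did not (adjusted p = 0.139, 0.119 and 0.146).

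Apoc2 passed narrowly (2.26 ± 0.80, adjusted p = 0.042). Its epiblast-like range of 11 to 1860 CPM overlapped the endoderm-like range, it did not pass when any 1 of 6 embryos was left out (adjusted p between 0.053 and 0.130), and neither plate subset passed (0.278 and 0.277). Apoa4 did not pass (1.83 ± 0.85, adjusted p = 0.117). One cell of the loose cluster, in embryo 9 of plate P3, held 97.6% of that embryo's epiblast-like Apoa4 counts, 96.4% of its Apoa2 and 75.1% of its Apoc2 counts. The markers of this cell were not those of a typical epiblast-like cell. Its Ttr level was 4153 CPM, above the endoderm-like median of 3251 CPM. Pou5f1 was at 5.504 CPM, against pooled levels of 646 CPM in epiblast-like and 53.8 CPM in endoderm-like cells. It had no count of Gata4, Gata6 or Sox17, and 4039 detected genes. Its identity was not tested. Without embryo 9 of plate P3 Apoa4 differed by 3.29 (adjusted p = 0.0044), without the loose cluster by 3.99 (adjusted p = 0.00048), and with the embryo as a block by 4.65 (adjusted p = 0.0022). Apoa2 did not pass (0.01 ± 1.03, adjusted p = 1), but did without the loose cluster (2.61, adjusted p = 0.047).

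The endoderm-to-epiblast difference itself changed with stage for 2 members by an interaction term. The share of all genes that passed this term is not given here. The difference was larger at E6.5 than at E4.5 by 5.27 on the log2 scale for Apoa1 (interaction term, adjusted p = 0.024) and by 2.99 for Apoe (adjusted p = 0.0024). For Apoa1 the difference at E4.5 did not itself pass, and it was 0.39 with the embryo as a block. All E4.5 epiblast-like counts of Apoa1 came from plate P1. For the other members the interaction did not pass (adjusted p between 0.150 and 1).

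In this comparison 20 of 25 other visceral endoderm genes were higher in endoderm-like sums and none lower (list median 3.36, all genes −0.32). Fga, a fibrinogen chain gene, averaged 4.78 against 0.0561 CPM (adjusted p = 0.0059, and 0.130 with the embryo as a block). Kng1, the kininogen gene, was called (adjusted p = 0.020) on 1 of 7 embryos, the others being at 0, and was lower by 2.47 on the log2 scale without that embryo (adjusted p = 0.374). Of 32 assembly genes 11 were higher and 1 lower, of 20 receptors 6 higher and 3 lower, of 31 regulators 9 higher and 1 lower, and of 24 other apolipoprotein and lipoprotein lipid genes 3 higher and 4 lower.

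**Figure D3:**
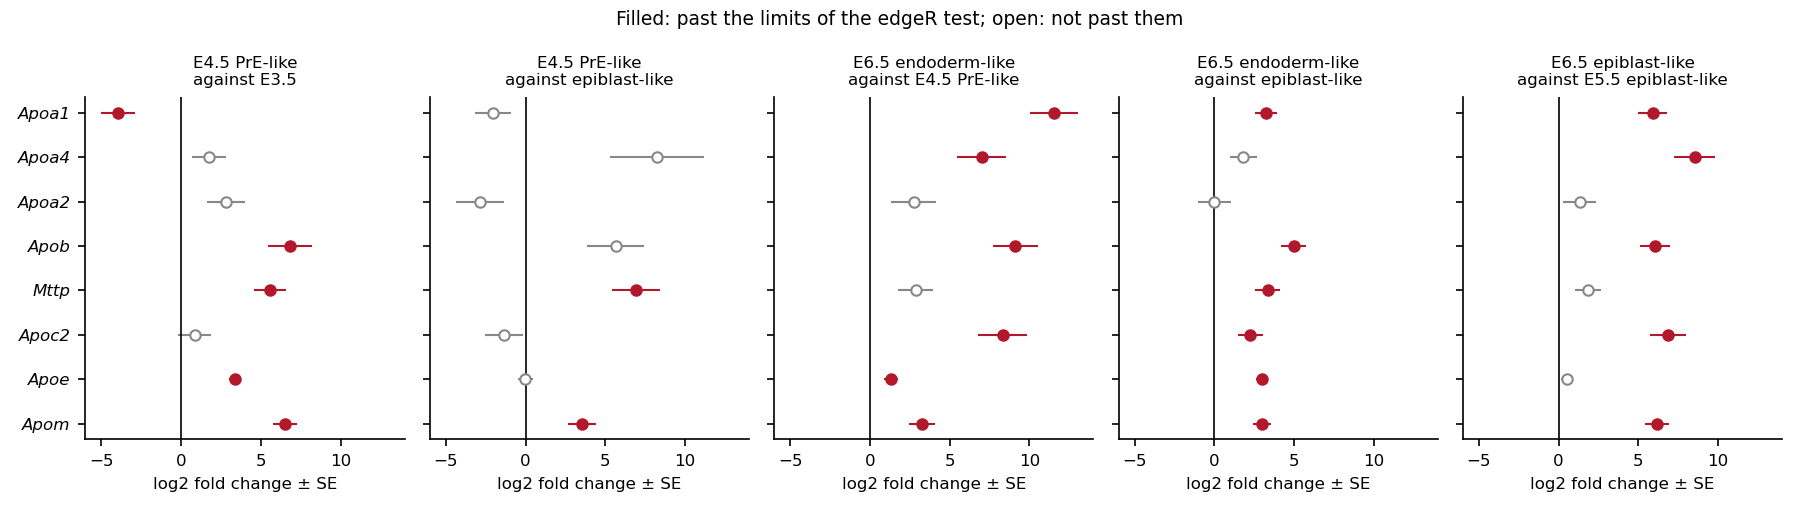
Log2 fold change ± SE of each member in the 5 main comparisons, filled where the edgeR test passed its limits and open where it did not. In order of the panels 5, 2, 6, 6 and 5 members passed, Apoa1 fell from E3.5 to PrE, and the values for genes with 0 to 3 counts in a group (Apoa4, Apob and Mttp at E4.5, Apob at E3.5) depend on the fit's prior count and are not bounds.

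Epiblast-like cells at E6.5 were compared with those at E5.5 to describe their low member levels. Of the 8 members, 5 were higher at E6.5 and none lower, where 11.8% of genes were called, 5.58% higher and 6.2% lower, and the members' median was 5.96 against 0 for all genes. Apoa1 was at 0.279 to 28.4 CPM (median 2.50 CPM) in 8 E5.5 sums and at 60.1 to 1049 CPM (median 501 CPM) in 13 E6.5 sums, a log2 difference of 5.89 ± 0.91 (adjusted p = 9.2e-06). Apom was at most 5.8 CPM at E5.5 and between 17.4 and 548 CPM at E6.5 (6.14 ± 0.75, adjusted p = 8.4e-08). Apob was at most 12 CPM, with 256 of the 257 counts behind that value in 1 cell, and between 12.1 and 236 CPM at E6.5 (6.04 ± 0.96, adjusted p = 1.5e-05). For these 3 genes the stages did not overlap, again without a share of all genes to set beside it.

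Apoc2 (6.84 ± 1.12, adjusted p = 2.3e-05) and Apoa4 (8.52 ± 1.30, adjusted p = 9.5e-06) rose too, with overlap at the low end. Apoe hardly differed between the stages, at 339 to 596 CPM and 236 to 1557 CPM (0.50 ± 0.33, adjusted p = 0.359). Mttp and Apoa2 did not pass (adjusted p = 0.132 and 0.456), with counts in 7 and 8 of the 8 E5.5 sums (up to 10.1 and 20.8 CPM). The 5 calls held without the loose cluster, without the 14 epiblast-like cells high in endoderm markers, and in the plate-named and other E6.5 embryos separately (largest adjusted p 0.00031). With classes from clusters that left out the members' chromosomes, which moved 5 of 8 E5.5 and 10 of 39 E6.5 endoderm-like cells to the epiblast-like class, Apoa1 and Apoa4 did not pass (adjusted p = 0.063 and 0.252).

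Endoderm and primitive streak genes rose in these cells too. Of 25 other visceral endoderm genes 15 rose and none fell (list median 3.90), and of 16 endoderm markers 8 rose and none fell (list median 3.09). Of 16 primitive streak markers 8 rose and 2 fell (list median 3.21), and of 15 epiblast markers 1 rose and 6 fell (list median −0.90). Fgb, another fibrinogen chain gene, went from 0 in all 8 sums to a mean of 12.3 CPM (adjusted p = 4.5e-06) and Spink3, a protease inhibitor gene, from 2.66 to 1219 CPM (adjusted p = 3.1e-10). Of 31 regulators 4 rose and 2 fell. Hnf4a, a nuclear receptor that drives apolipoprotein genes in liver, averaged 0.00546 CPM at E5.5 and 7.15 CPM at E6.5 (adjusted p = 1.5e-05), and Foxa2 0.0566 and 11.6 CPM (adjusted p = 1.1e-05). The nuclear receptor genes Nr0b2 and Nr5a2 averaged 0.544 and 0.445 CPM at E5.5 and 0 and 0.00224 CPM at E6.5 (adjusted p = 0.021 and 0.0054, the latter 0.056 without 1 E5.5 embryo). In simulated counts, unchanged genes under 1 CPM were called in this comparison more often than the nominal rate. Assembly genes rose in 4 and fell in 3 of 32 cases, with Pla2g12b at a mean of 0.158 CPM at E5.5 and 25.8 CPM at E6.5 (adjusted p = 4.0e-07). Receptors rose in 4 of 20 cases, with Cubn going from 3.60 to 56.6 CPM (adjusted p = 0.00099), and other apolipoprotein and lipoprotein lipid genes rose in 4 and fell in 2 of 24.

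Shares of cells with a count were compared after each cell was thinned to 100000 counts, with the unthinned share after it, and exact binomial intervals cover counting error only. Apom had a count in 90.2% of PrE-like cells (95% interval 81.7 to 95.7%; unthinned 91.5%) and 34.8% of E4.5 epiblast-like cells. Mttp had one in 43.9% of PrE-like cells (33.0 to 55.3%; unthinned 53.7%), spread over all 5 embryos, and in 0 of 23 epiblast-like cells, which allows a share of up to 13.0% (1 of 23 before thinning). Apoa2 was in 65.2% of epiblast-like and 11% of PrE-like cells (unthinned 82.6 and 17.1%). Apob was in 2.44% of PrE-like cells and in all 38 E6.5 endoderm-like cells deep enough to thin.

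In E6.5 epiblast-like cells Apoa1 had a count in 90.8% (85.6 to 94.5%; unthinned 93.5%), Apoc2 in 75.5%, Apom in 75%, Apob in 68.5%, Apoa4 in 38.0% and Mttp in 34.2%. The corresponding E5.5 epiblast-like shares were 8.49, 6.95, 6.56, 1.54, 1.16 and 8.49%, and the median counts per cell of these classes were 617739 and 783785. At E6.5 most epiblast-like cells therefore had a count of Apoa1, Apoc2, Apom and Apob, and a minority had 1 of Apoa4 and Mttp. Levels were less evenly spread. Without thinning, the tenth of cells highest in a gene held from 40.2% (Apom) to 75.8% (Apoa4) of its CPM summed over cells. The cell of embryo 9 of plate P3 held most Apoa4 counts of its sum. Apoe had a count in 96.0 to 100% of cells in every class. Of the 7 members other than Apoe, a cell had, without thinning, a median of 1 at E3.5 and 2 in both E4.5 classes. The median was 1 in E5.5 epiblast-like and 7 in E5.5 endoderm-like cells. At E6.5 it was 5 in epiblast-like, 6 in endoderm-like and 7 in streak-like cells.

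**Figure D4:**
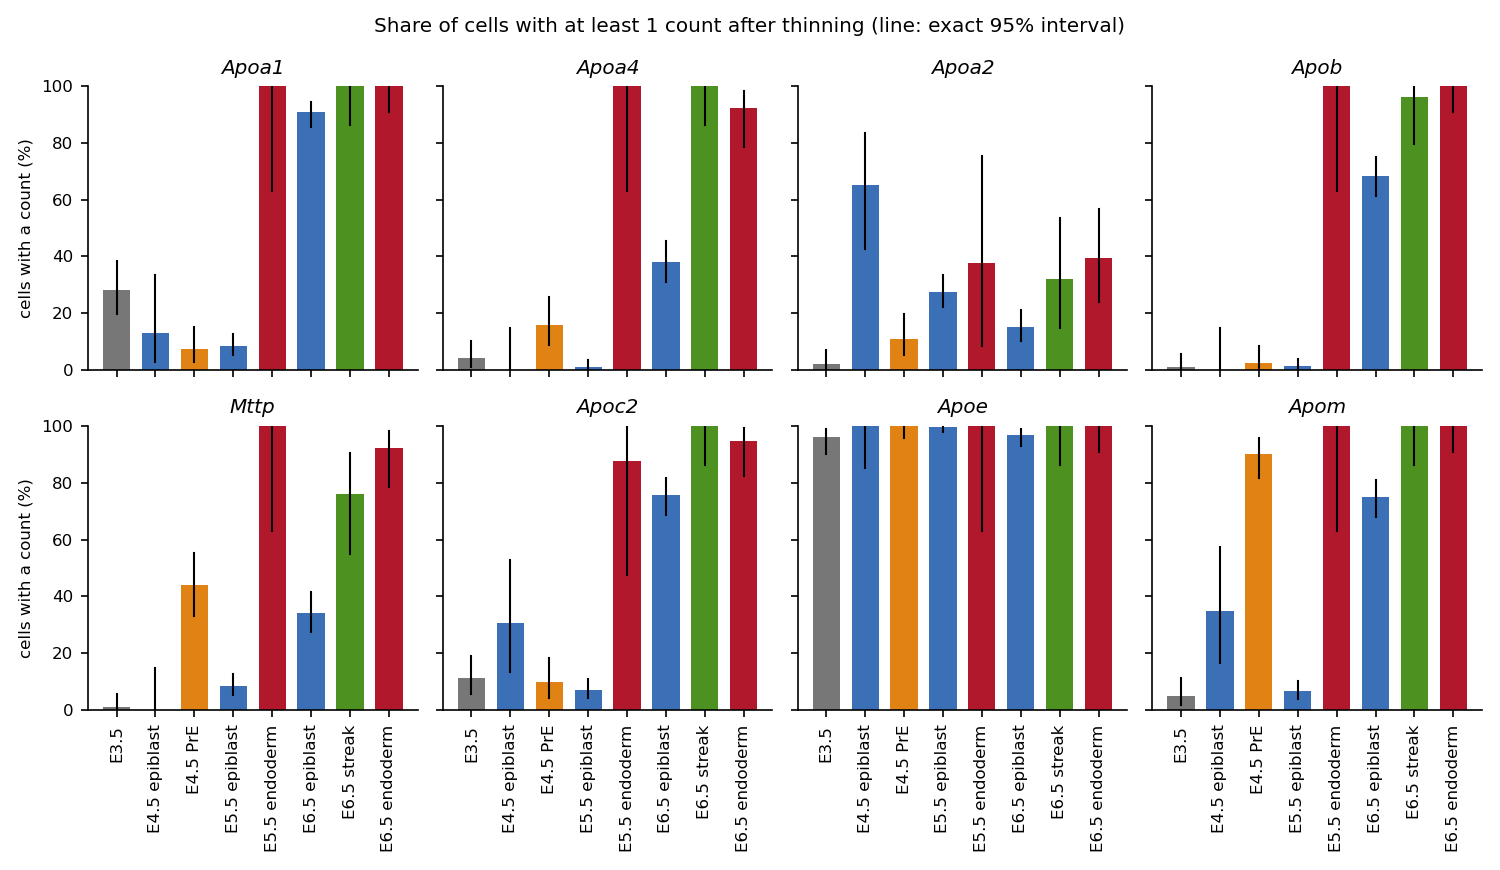
Share of cells of each class with at least 1 count of each member after thinning to 100000 counts, with exact 95% binomial intervals as lines. The E6.5 epiblast-like bars of Apoa1, Apob, Apoc2 and Apom (68.5 to 90.8%) stand far above the E5.5 epiblast-like bars (1.54 to 8.49%), while Apoe is near 100% in all classes.

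The levels in E6.5 epiblast-like cells were also set beside those of endoderm-like cells of the same embryo, in 12 embryos with both. Here embryos with fewer than 3 endoderm-like cells were kept, which were 5 of the 12. The median over embryos was 10.5% for Apoa1 (1.51 to 43.1%), 10.8% for Apoe (3.83 to 21.7%) and 7.68% for Apom (1.77 to 28.4%). It was 10% for Apoa2 (0 to 944%, 7 embryos), 9.43% for Apoc2 (1.03 to 74.9%, 11 embryos), 8.65% for Apoa4 (0 to 63.9%) and 8.27% for Mttp (0 to 116%), so that the epiblast-like level of Apoa2 and Mttp was above the endoderm-like level in at least 1 embryo. Apob had the lowest median, 3.94% (0.360 to 15.6%). For 24 other visceral endoderm genes the median of these medians was 6.80% (0 to 112%). For 15 endoderm markers it was 11%, from 0 for Pdgfra and 0.727% for Gata6 to 33.0% for Sparc and 54.5% for Lamb1. In 4 E5.5 embryos with both classes, 3 of them with 1 endoderm-like cell each, the medians were 0.160% for Apoa1, 0.335% for Apom, 0.108% for Apoc2, 0.0152% for Apob, 1.56% for Mttp and 8.41% for Apoe, with 0.299% for 15 other visceral endoderm genes and 4.43% for 11 endoderm markers.

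**Figure D5:**
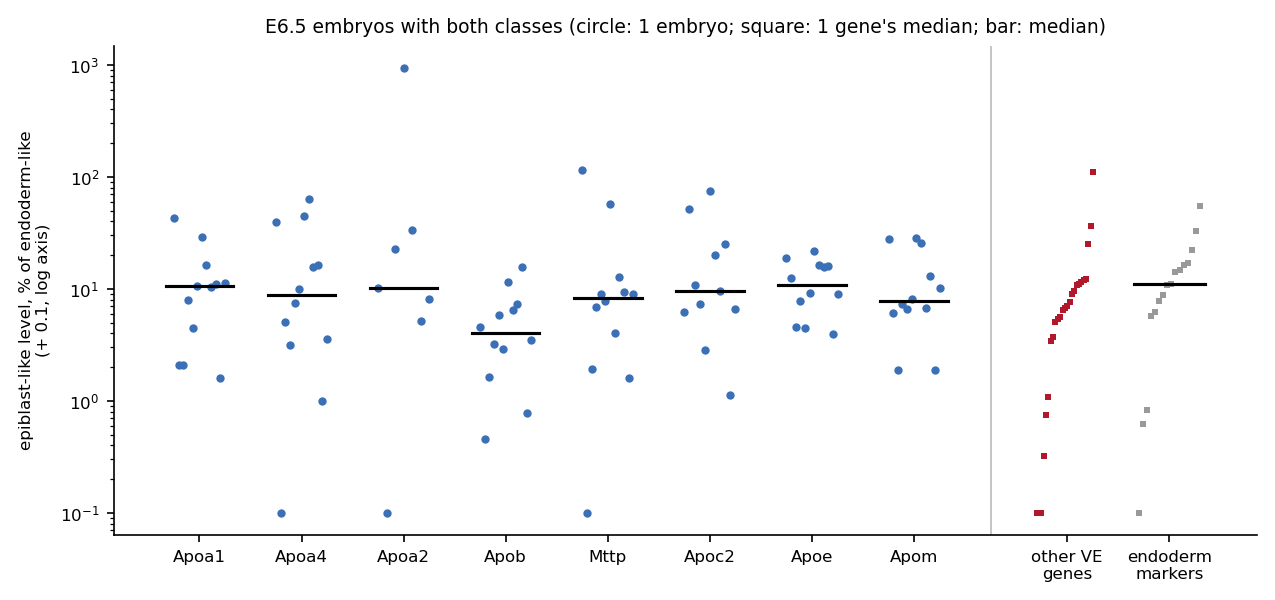
Level in E6.5 epiblast-like cells as a percentage of the level in endoderm-like cells of the same embryo (plus 0.1, log axis), 1 circle per embryo and a bar at the median for each member, with squares for the medians of single genes of 2 other lists. The members' medians lie between 3.94 and 10.8%, and those of 24 other visceral endoderm genes between 0 and 112%.

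The mix of members was not the same in both classes. Of the summed CPM of the 7 members without Apoe, Apoa1 made up a median of 42.7% in epiblast-like and 36.5% in endoderm-like cells of the 12 embryos, Apob 13.3 and 28.6%, Apoc2 20.3 and 16.8%, and Apom 14.7 and 13.9%. Across the 102 epiblast-like cells of plate-named embryos the level of Apoa1 had a Spearman correlation of 0.86 with the summed other visceral endoderm genes, and across the 84 cells of other embryos 0.84, cells that share embryos and plates. Its correlations with total counts were −0.42 and 0.12. For Apom the first pair of values was 0.85 and 0.78, for Apoe 0.76 and 0.80, and for Mttp 0.47 and 0.31.

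Transcription factors of the endoderm were detected in a minority of these cells. Of the 186 E6.5 epiblast-like cells, Gata6 had a count in 12.9%, Sox17 in 19.4%, Gata4 in 22.6%, Hnf4a in 20.4% and Foxa2 in 30.6%, and Ttr, the transthyretin gene, in 90.9%. Apoa1 counts were present in 94 of the 105 cells with no count of any of 4 such factors, Gata4, Gata6, Sox17 and Sox7 (89.5%, median 87.5 CPM) and in 80 of the other 81 cells (median 329 CPM). Foxa2 and Hnf4a were not part of this split. All 39 E6.5 endoderm-like cells had a count of at least 1 of the 4 factors, and a median of 3543 CPM of Apoa1. Among them Gata4 had a count in 87.2%, Gata6 in 79.5%, Sox17 in 64.1% and Sox7 in 33.3%. All 4 factors are among the endoderm markers that named the clusters, so their difference between the classes is partly built in. Their median levels in endoderm-like cells were at most 89.95 CPM (Gata4), far below that of Apoa1. At such levels a factor can go uncounted in a cell, so the split does not show which epiblast-like cells lacked these factors. E5.5 epiblasts were drawn out of their endoderm before dissociation, whereas at E6.5 extra-embryonic tissue was taken off and no such step is described for the endoderm around the epiblast, so stage and handling cannot be told apart, and whether the counts in epiblast-like cells were made there or carried over was not tested.

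Primitive streak-like cells gave 1 sum of 24 cells, at 528 CPM of Apoa1, 1109 of Apoe, 367 of Apoc2, 182 of Apob, 161 of Apom, 108 of Apoa4, 29.9 of Mttp and 8.81 of Apoa2. None of the 8 members was called against epiblast-like sums, where 0.0529% of genes were called (9 genes). With 1 embryo on one side, assumed to vary like the other classes, this does not show that the levels were alike. After thinning, Apoa4 had a count in 25 of 25 streak-like cells against 38.0% of epiblast-like cells, and Mttp in 76% against 34.2%, cells that mostly came from this embryo.

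Within E6.5 endoderm-like cells, 21 cells with at least 10 CPM of Cer1, a secreted antagonist that marks the anterior visceral endoderm, were summed apart from the other 18. Here a sum needed at least 1 cell, not at least 3, so some sums rest on few cells. None of the 8 members passed, where 0.0142% of 7052 genes did (Cer1 itself, which chose the cells). All 8 point estimates were lower in Cer1-positive sums, with unadjusted p of 0.011 for Apom, 0.012 for Apob and 0.023 for Apoe. The fit behind these values did not pair the sums of an embryo. In the 5 embryos with both kinds of cell, 6 members were lower in the Cer1-positive cells of all 5, Mttp of 4 and Apoa2 of 3. Apob averaged 2211 ± 1740 CPM (SD, n = 9) in Cer1-positive and 5046 ± 2793 CPM (SD, n = 8) in other sums.

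At E6.5 the titles name a plate (P1, P2 or P3) for 9 embryos and none for 4, and 14 wells held a cell pair. None of the members differed between the 9 plate-named and 4 other epiblast-like sums, where 0.869% of 11622 genes were called (0.757% higher and 0.112% lower in plate-named sums), and the smallest unadjusted p was 0.287, for Apob. Endoderm-like sums of the 2 embryos without a plate name, both titled E6.75, held more Apob (6337 and 7095 CPM) than the 5 plate-named ones (877 to 5184 CPM).

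Over all 50 sums, the genes whose log2 level was most like a member's were often other members or endoderm genes, a description in which all sums share the class structure. Apob was most like Rbp4 (Pearson r = 0.962) and Prss12 (0.952), Apoa1 like Rbp4 (0.914) and Apob (0.911), and Apoc2 like Apob (0.892) and Rbp4 (0.891). Apom was most like Ctsh (0.95) and Spink3 (0.947), and Mttp like Ctsh (0.919) and Clic6 (0.900). Apoa4 was most like its antisense neighbour Gm10680 (0.991), with which it can share reads, and Apob (0.935). The 2 members with the least specific pattern had weaker neighbours, S100a10 (0.838) and Lpar6 (0.833) for Apoe and Uqcrq (0.692) and Fam166a (0.664) for Apoa2.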

How the data were processed

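Single cells and cell pairs were sequenced by G&T-seq with Smart-seq2 amplification. The authors deposited raw counts per gene and cell, made per the submitters' processing notes with Trim Galore 0.4.3 and HISAT2 2.0.5 against GRCm38, and kept cells that passed their quality limits. No values were normalized in the deposited file. The members, lists and classes were chosen with earlier results of these data known. Embryos were taken from stage, plate and embryo number in the titles, and 9 E3.5 cells without a number were summed as 1 embryo. Cells of all stages were clustered together, and E6.5 cells again on their own (scikit-learn 1.9.0). Summed counts (1165967 to 49484352 per sum) were tested with edgeR 4.0.16 (TMM, filterByExpr, quasi-likelihood F test, Benjamini-Hochberg over 17020 genes) in 1 fit over all classes under R 4.3.3. Calls needed an adjusted p no larger than 0.05 with an absolute log2 fold change over 1 (2 within E4.5). DESeq2 1.42.0, other clusterings, filters and subsets were alternatives. Levels are CPM of TMM-scaled library sizes, and ratios of epiblast-like to endoderm-like cells use raw totals. Intervals are exact at 95% and cover counting error only, and 3 counts stand for the limit of a count of 0. Named genes were the 8 members, the called genes of each list with the largest rise or drop, and the 2 genes most like each member over the sums by Pearson r of log2(CPM + 1). Some genes this rule picks are not reported here. Classes of an embryo share that embryo, and their deviations from class means correlated at −0.016 to 0.244 at E4.5 and 0.117 to 0.385 at E6.5. The test was run on simulated data first, where unchanged genes, mostly under 1 CPM, were called above the nominal rate in the 2 comparisons with E6.5 epiblast-like sums.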

Additional observations from a re-analysis of the deposited data

Results flagged for a closer look

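Of 40 groups of 4 to 10 sums, 10 held a highest sum set apart from the others by Dixon's test at 95%. The test assumes normally distributed values, for which about 1 in 20 would be flagged. Many of these sums are at 0, and a lone sum above 0 is always flagged, so that rate is no measure for these groups. At E3.5 these were Apoa1 at 103 CPM in a 3-cell sum of plate P8 (next 40.8 CPM), Apoa4 at 6.23 CPM in embryo 6 of plate P9 (next 1.63 CPM), Apob at 0.251 CPM (2 counts) in embryo 7 and Mttp at 4.28 CPM (25 counts) in embryo 8 of that plate, the only E3.5 sum with Mttp counts. At E4.5 embryo 5 of plate P2 stood apart for Apob in PrE-like cells (32.0 CPM, 614 counts of 1 cell, next 0.435 CPM), for Apob in epiblast-like cells (0.436 CPM, 2 counts) and for Apom in PrE-like cells (340 CPM, next 130 CPM). In embryo 4 of that plate Mttp was at 0.648 CPM (3 counts) in epiblast-like cells, the others being at 0. At E5.5 the epiblast-like sums of embryo 6 (Apob, 12 CPM, next 1.3 CPM) and embryo 3 (Apoc2, 13.0 CPM, next 4.63 CPM) stood apart.

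The endoderm-to-epiblast difference was larger at E6.5 than at E4.5 for 2 members by an interaction term, by 5.27 on the log2 scale for Apoa1 (adjusted p = 0.024) and by 2.99 for Apoe (adjusted p = 0.0024). The share of all genes that passed this term is not given here. For Apoa1 the difference at E4.5 did not itself pass.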

How the results depend on the processing

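No difference of a member changed direction with a call on it under any alternative run. Of the members' differences under alternatives other than leaving out an embryo, 491 of 559 kept their side of the test, 25 lost and 17 gained a call, and 26 uncalled ones moved. With 1 embryo left out, the members called ranged from 1 to 2 (E4.5 PrE-like against epiblast-like), 4 to 7 (against E3.5), 5 to 6 (E6.5 endoderm-like against PrE-like), 5 to 7 (against epiblast-like) and 5 to 5 (E6.5 against E5.5 epiblast-like), and all genes called from 319 to 364 (319, 324, 330, 334 and 364 against 591 with every embryo), 2391 to 2974, 1398 to 1815, 2081 to 2678 and 1171 to 2070. Members called at E4.5 were 4 with DESeq2, 0 with clusters that left out the members' chromosomes and 0 within plate P1. They were 3 against E3.5 with only that pair of classes, 2 at E6.5 endoderm-like against epiblast-like with those clusters and 2 without plate-named embryos, 3 for E6.5 against E5.5 epiblast-like with those clusters, 1 for streak-like sums of at least 1 cell (Apoe, 2.46, adjusted p = 0.0035) and 2 for the Cer1 split in sums of at least 2 cells (Apoa4 −2.65, adjusted p = 0.0042; Apoc2 −2.70, adjusted p = 0.014). The members' median percentage of the endoderm-like level, 9.04, was 6.31 without epiblast-like cells high in endoderm markers, an alternative chosen after seeing the data. The cause of these changes was not tested.

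Genes called at E4.5 numbered 591, with DESeq2 1108 and within plate P1 109. Against E3.5, 3035 became 1524 with only the pair of classes. For E6.5 endoderm-like against PrE-like, 1887 became 819 with the pair, 1029 with clusters without the members' chromosomes and 433 without plate-named embryos. Against epiblast-like, 2720 became 1059, 864, 272 without plate-named embryos and 1537 with only these. For E6.5 against E5.5 epiblast-like, 2006 became 1300 with DESeq2, 1303 with the pair and 356 without plate-named embryos. Streak-like calls went from 9 to 22 with DESeq2, 4 in single wells, 64 with sums of 1 cell and 2 without plate-named embryos, Cer1 calls from 1 to 13 with at least 2 cells and 14 with DESeq2, and plate calls from 101 to 304 with DESeq2 and 12 without cells titled E6.75. Kng1 reversed in endoderm-like against epiblast-like sums with DESeq2 (−0.29), without cells titled E6.75 (−2.60) and without embryo 1 of E6.75 (−2.47).

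With the embryo as a replicate block, which pairs classes of 1 embryo, genes called moved from 591 to 957 at E4.5 and from 2720 to 559 at E6.5. Among the members it added the calls on Apoa2 at E4.5 (−2.92, adjusted p = 0.024) and Apoa4 at E6.5 (4.65, adjusted p = 0.0022) and changed no other call. Of the list genes named, Lipa (adjusted p = 0.138), Clu (0.074) and Fga (0.130) lost their calls.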

Other observations

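Clustering without the members' chromosomes moved 4 PrE-like cells to the epiblast-like class, and they were not alike. Of these, 3 had mean endoderm marker levels of 0.398, 1.47 and 1.57 (log2 scale), below every other PrE-like cell (lowest 4.57) and within the epiblast-like range (highest 3.38), and the other, with the Mttp counts, was at 5.30. It held 212 Mttp, 149 Apom and 2354 Apoe counts, and none of Apob, Apoa1, Apoa4 and Apoc2.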
